A study of Mus musculus with 17 samples.

Results

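The genes described here are 10 members of the Wnt/beta-catenin pathway and its direct targets, namely Ctnnb1, Axin2, Lef1, Tcf7, Tcf7l2, Nkd1, Apcdd1, Znrf3, Rnf43 and Lgr5, measured by RNA sequencing of the mouse choroid plexus. They were chosen by name, as the rows of the count table whose Ensembl identifiers carry these symbols in GENCODE. All 10 were found among the 55487 genes of the table, and all 10 were among the 16851 genes that passed the filter on low counts and were tested.

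In the canonical Wnt pathway, a secreted Wnt ligand binds a Frizzled receptor and its co-receptor Lrp5 or Lrp6, which halts the destruction of beta-catenin, the product of Ctnnb1. Beta-catenin then enters the nucleus, binds factors of the TCF/LEF family and switches on target genes, many of which code for inhibitors of the same pathway. In the brain, Wnt signalling to endothelial cells builds and keeps the blood-brain barrier, whereas the capillaries of the choroid plexus are fenestrated. The pathway has been proposed as a controller of the vascular barrier of the choroid plexus, and the comparisons below give the levels of its genes over a course of intestinal injury.

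C57BL/6 mice were the source of the tissue, the whole lateral-ventricle choroid plexus, and the libraries were made from total RNA with a kit for very small inputs (SMART-Seq v4). There were 17 libraries in 4 groups. The 5 control libraries (CTRL) had no treatment label beyond control. The 4 T1 libraries followed 1 day of dextran sodium sulfate (DSS), a polymer given by mouth that injures the lining of the colon, the 4 T3 libraries followed 3 days of DSS, and the 4 T5 libraries came 2 days after the same 3-day course was replaced by water. No genetic alteration is named for any group. The labels used here state neither age nor sex, nor how many animals stand behind a library.

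Library totals ran from 8875921 counts (T1 replicate 4) to 26839417 counts (T3 replicate 2). The defining transcripts of the choroid plexus epithelium were abundant: all 12 epithelial markers passed the filter, and together they held 98060 to 222900 CPM in the 17 libraries. CPM is the read count scaled to a fixed library size after TMM normalisation of the library totals. Oligodendrocyte and neuronal markers of surrounding brain varied far more between libraries. The 8 oligodendrocyte markers summed to 91.0 to 16320 CPM and the 10 neuronal markers to 17.7 to 753 CPM, and no marker of these lists was at 0 in any library. Other brain lists varied less, with sums of 448 to 1267 CPM for astrocytes, 120.4 to 207.9 for thalamic neurons and 202 to 478 for ependymal cells. The titles of 4 libraries (T1 replicates 2, 3 and 4, and T3 replicate 4) carry numbers of 28 or above, while T1 replicate 1 carries the number 9. The labels do not say what these numbers stand for. Thus 1 day of DSS and the number series can be told apart only through T1 replicate 1, or through T3 replicate 4 if the series acts alike in both groups. The T1 differences of the 10 members are also given without these 4 libraries, a fit in which T1 replicate 1 stands alone and takes its spread from the other groups. Because the tissue was sequenced in bulk, fewer cells of a type and less RNA per cell cannot be told apart.

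The promoters of the TCF/LEF genes are shown first, because Lef1 and Tcf7l2 had the highest correlation among the TCF/LEF genes over the libraries (r = 0.66), and Axin2 is shown beside them as the textbook target of the pathway. Windows of 300 bases, 250 before and 50 from the transcription start, were taken from RefSeq on GRCm38.p6 and were found for 7 of the 10 genes. The core TCF/LEF motif CTTTG was searched on both strands and is printed in capitals, as CTTTG or as its reverse complement CAAAG. Each window is written 5′ to 3′ on the strand of the gene, and all of them lie on the plus strand. The windows are the Lef1 start at chr3:131110047-131110346, a Lef1 start inside the gene at chr3:131156044-131156343, the upstream Tcf7l2 start at chr19:55741560-55741859 and the Axin2 start at chr11:108920099-108920398.
Lef1, upstream start: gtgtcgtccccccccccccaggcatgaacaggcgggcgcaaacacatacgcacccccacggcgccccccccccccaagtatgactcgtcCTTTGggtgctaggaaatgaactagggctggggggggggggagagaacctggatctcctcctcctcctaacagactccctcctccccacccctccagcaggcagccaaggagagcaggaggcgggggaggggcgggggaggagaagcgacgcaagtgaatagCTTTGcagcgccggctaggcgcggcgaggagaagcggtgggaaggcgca
Lef1, internal start: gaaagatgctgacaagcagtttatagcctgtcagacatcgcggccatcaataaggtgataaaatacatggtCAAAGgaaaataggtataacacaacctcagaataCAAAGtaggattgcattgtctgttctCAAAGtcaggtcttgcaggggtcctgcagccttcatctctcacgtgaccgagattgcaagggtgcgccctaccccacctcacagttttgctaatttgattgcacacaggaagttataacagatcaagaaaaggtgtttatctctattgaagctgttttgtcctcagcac
Tcf7l2, upstream start: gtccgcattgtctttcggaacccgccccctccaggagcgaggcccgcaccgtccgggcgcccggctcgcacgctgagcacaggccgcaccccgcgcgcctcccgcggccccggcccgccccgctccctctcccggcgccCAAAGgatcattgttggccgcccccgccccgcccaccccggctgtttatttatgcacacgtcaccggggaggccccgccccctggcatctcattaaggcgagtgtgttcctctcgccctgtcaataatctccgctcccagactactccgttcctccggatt
Axin2: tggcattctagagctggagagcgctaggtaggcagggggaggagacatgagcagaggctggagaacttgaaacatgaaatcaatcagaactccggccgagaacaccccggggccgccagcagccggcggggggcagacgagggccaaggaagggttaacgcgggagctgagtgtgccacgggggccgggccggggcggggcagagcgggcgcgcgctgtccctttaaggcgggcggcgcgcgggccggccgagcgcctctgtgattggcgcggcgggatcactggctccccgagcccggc

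All 4 annotated Lef1 starts held the motif, with 8 matches in all, of which some lie in windows that overlap. The internal Lef1 start held 3 of them, first bases at -179, -145 and -119 from the start, and 2 of these read CTTTGA. Both Tcf7l2 starts held 1 match. The windows of Axin2, Ctnnb1, Nkd1, Rnf43 and Tcf7 held none, which says only that these letters are not in this window. Over all 32851 promoter windows of the table, 53.9% held CTTTG, 5257 windows held the longer CTTTGA that contains it, and 3.73% held CTTTGAT, which contains both. A match in 300 bases is therefore common, and it is a description of the sequence, not of a bound site.

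Ctnnb1 stood far above the other 9 genes in every library. To compare genes, CPM was divided by the merged exon length in kilobases. On that scale Ctnnb1 had a median of 86.4 CPM per kb, and its lowest library (57.7) lay above the highest library of any other member. Rnf43 followed with a median of 2.598 CPM per kb, then Lef1 with 2.22, Tcf7l2 with 1.79, Nkd1 with 1.18, Axin2 with 1.12, Tcf7 with 0.855 and Znrf3 with 0.692. Apcdd1 and Lgr5 came last, with medians of 0.152 and 0.0245 CPM per kb. Apart from the step below Ctnnb1, the ranges of neighbours in this order overlapped. The gene ranked higher had the higher level in 10 of 17 libraries for Rnf43 over Lef1, in 8 of 17 for Nkd1 over Axin2, and in 16 of 17 for Znrf3 over Apcdd1. Among the TCF/LEF genes, Lef1 exceeded Tcf7l2 in 13 of 17 libraries, and both had higher medians than Tcf7.

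**Figure D1:**
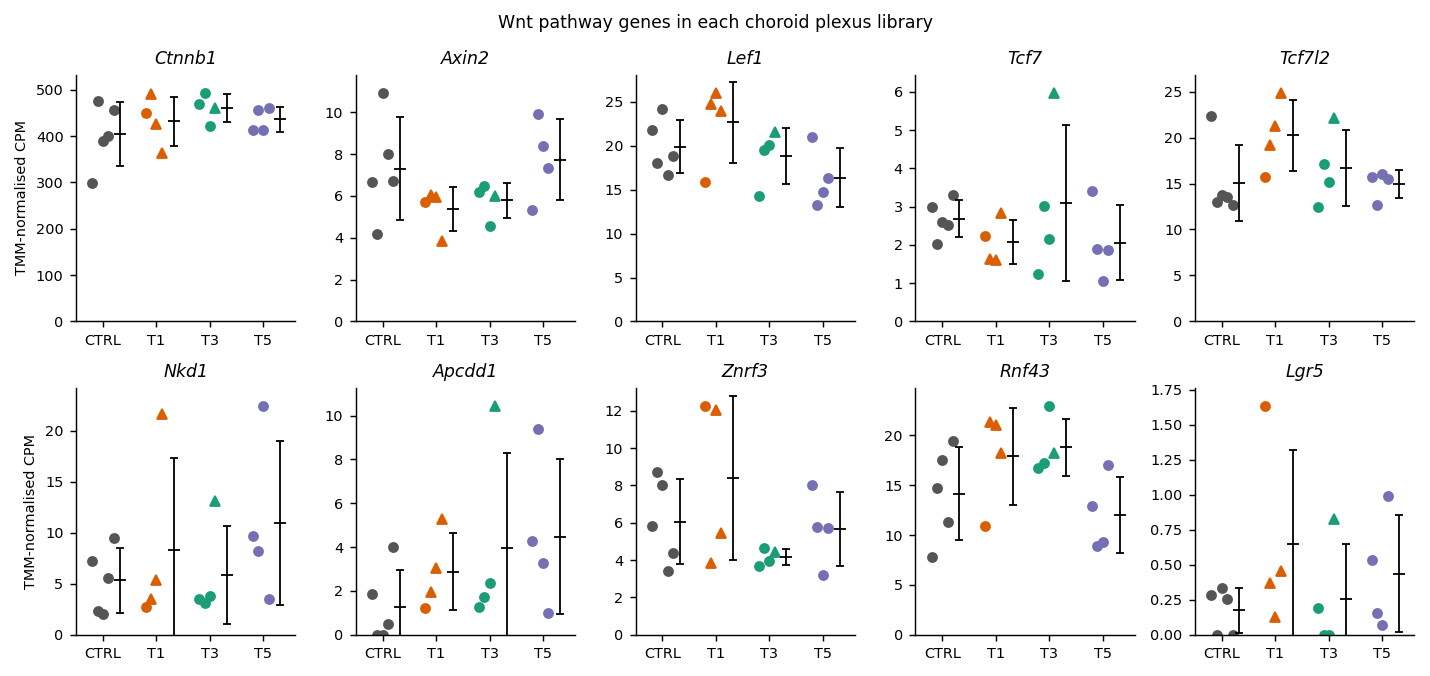
TMM-normalised CPM of the 10 Wnt pathway genes in each of the 17 libraries, by group (CTRL, T1, T3, T5). Each symbol is 1 library, triangles mark the 4 libraries whose title number is 28 or above, and the black marks are the group mean ± SD, with bars ending at the axis where they reach 0. The groups overlap for every gene, and single high libraries set the spread of Nkd1 and Apcdd1.

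None of the 10 genes passed the test in any comparison, and none had groups that did not overlap. With edgeR's quasi-likelihood test and Benjamini-Hochberg adjustment over all tested genes, 0 of 10 members were called in T1, T3 or T5 against CTRL, in T5 against T3, or in the test of any difference among the 4 groups. Over all genes, 0 of 16851 (0%) were called in each of these comparisons, so the members' count equals the background. At an unadjusted p under 0.05, 1 member (Tcf7l2) passed in T1 against CTRL, where 21.1% of all genes did. No member did so in T3 against CTRL (4.97% of all genes), T5 against CTRL (7.83%) or the 4-group test (18%), and 1 member (Rnf43) did in T5 against T3 (10.5%). Groups did not overlap for 6.76%, 1.7%, 2.56% and 7.36% of all genes in T1, T3 and T5 against CTRL and in T5 against T3, and for 0 of 10 members in each. DESeq2 called 0 of 10 members in all 5 tests, where it called 701 of all genes in T1 against CTRL and 970 in the 4-group test. limma-voom with quality weights called 2 in T1 against CTRL, Tcf7l2 and Apcdd1, where it called 4140 of all 16851 genes. In the 4-group test it called 1 member, Apcdd1, where it called 3907 of all genes. Members with a positive log2 fold change numbered 8 of 10 in T1, 7 in T3 and 5 in T5, all against the same CTRL libraries. Their median log2 fold changes were 0.38, 0.17 and 0.04, beside 0.08, 0.02 and 0.02 over all tested genes, of which 9716, 8888 and 9187 of 16851 had positive values. Without the 4 libraries with high title numbers, 4 of 10 members had positive values in T1: Ctnnb1 (0.13), Tcf7l2 (0.05), Znrf3 (0.98) and Lgr5 (3.17). The other 6 were Axin2 (-0.37), Lef1 (-0.34), Tcf7 (-0.28), Nkd1 (-0.96), Apcdd1 (-0.05) and Rnf43 (-0.40).

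Ctnnb1 (ENSMUSG00000006932, chr9:120929216-120960507, plus strand on GRCm38) codes for beta-catenin, which also anchors cadherins at cell junctions. Its CPM values in CTRL replicates 1 to 5 were 299.6, 476, 389.8, 401 and 457. They were 449, 490.1, 427 and 363 in the T1 libraries, 469, 493, 420.6 and 460.2 in T3, and 412, 457, 413 and 460.3 in T5. The lowest library of all was CTRL replicate 1, and the groups overlapped. Ctnnb1 varied least among the members: its highest library was 1.65 times its lowest. The log2 fold changes against CTRL were 0.09 ± 0.13 (SE) in T1, 0.19 ± 0.13 in T3 and 0.11 ± 0.13 in T5, with adjusted p of 0.678, 0.911 and 0.897 by edgeR's quasi-likelihood test. Exons of Ulk4 lie on the opposite strand within the gene, and because the strand setting of the counting is unknown here, reads of that overlap cannot be assigned. Counts listed for Ulk4 amounted to 9.95% to 17.2% of those of Ctnnb1.

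Lef1 (ENSMUSG00000027985, chr3:131110471-131224356, plus strand), a TCF/LEF factor and itself a target of the pathway, had CPM values of 21.9, 18.1, 24.1, 16.7 and 18.8 in the CTRL libraries. The T1 values were 15.9, 24.7, 26.03 and 23.9, with the low value in T1 replicate 1 and the 3 high ones in the libraries numbered 28 or above. T3 stood at 14.3, 19.5, 20.1 and 21.6, and T5 at 21.1, 13.3, 14.7 and 16.3. Against CTRL the log2 fold changes were 0.19 ± 0.17 in T1, -0.07 ± 0.17 in T3 and -0.28 ± 0.18 in T5, with adjusted p from 0.532 to 0.96 by edgeR. Without the 4 libraries with high title numbers, the T1 value was -0.34, resting on T1 replicate 1 alone. The opposite-strand transcript Gm43352 overlaps exons of Lef1, and its own counts came to 4.56% to 8.88% of those of Lef1.

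Tcf7l2 (ENSMUSG00000024985, chr19:55741820-55933654, plus strand), which codes for TCF4 and is used by brain endothelium and by thalamic neurons among other cells, came nearest to the threshold. The CTRL values were 22.4, 12.9, 13.8, 13.5 and 12.7 CPM, so that CTRL replicate 1 lay well above the other 4. The T1 values were 15.7, 19.1, 21.2 and 24.9 CPM. All 4 T1 libraries were above the CTRL mean, but CTRL replicate 1 lay above 3 of them. T3 gave 12.4, 17.1, 15.1 and 22.2 CPM and T5 gave 15.7, 12.7, 16.03 and 15.5 CPM. The means were 20.2 ± 3.83 (SD, n = 4) in T1 and 15.1 ± 4.11 (SD, n = 5) in CTRL, a log2 fold change of 0.43 ± 0.19 with an adjusted p of 0.22 by edgeR. In T3 and T5 the log2 fold changes against CTRL were 0.15 ± 0.19 and -0.01 ± 0.20. limma-voom with quality weights gave the T1 difference as 0.56 with an adjusted p of 0.0159, within a range of 0.0159 to 0.999 over the alternatives run. Without the 4 libraries with high title numbers it was 0.05.

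Tcf7 (ENSMUSG00000000782, chr11:52252371-52283014, minus strand), which codes for TCF1 and is best known from T cells, was low. Its CPM was 2.02 to 3.31 in the 5 CTRL libraries, 1.62 to 2.82 in T1, 1.25, 3.02, 2.15 and 5.98 in T3, and 1.06 to 3.41 in T5. The high value was that of T3 replicate 4, and it lay above all other libraries. The log2 fold changes against CTRL were -0.38 ± 0.41, 0.22 ± 0.40 and -0.38 ± 0.40, and the positive T3 value became -0.32 without T3 replicate 4. The lymphocyte markers gave no firm comparison, since 3 of 11 passed the filter, Cd2, Trac and Cd4, with medians of 0.37, 0.44 and 0.75 CPM. These and Cd3g had reads in every library, while Cd3e, Cd3d and Cd8a were at 0 in 5, 7 and 7 of the 17 libraries. Between Tcf7 and the tested lymphocyte markers r was 0.15 and rho 0.049.

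Axin2 (ENSMUSG00000000142, chr11:108920349-108950783, plus strand), a scaffold of the complex that destroys beta-catenin, is the target most often read as a sign of pathway activity. The CTRL libraries spanned 6.66, 4.20, 10.9, 7.997 and 6.73 CPM, and the T1 libraries 5.72, 6.03, 5.96 and 3.82 CPM. T3 gave 6.17, 6.47, 4.57 and 5.98 CPM and T5 gave 5.33, 9.92, 8.37 and 7.33 CPM. All 4 T1 and all 4 T3 libraries lay below the CTRL mean of 7.30 ± 2.45 CPM (SD, n = 5), yet within the CTRL range except for T1 replicate 4. The log2 fold changes were -0.44 ± 0.26 in T1 (adjusted p = 0.327), -0.33 ± 0.25 in T3 (adjusted p = 0.911) and 0.08 ± 0.25 in T5 (adjusted p = 0.969), by edgeR. T5 against T3 stood at 0.42 ± 0.27 (adjusted p = 0.568). In T1 and T3 no alternative turned the sign of the Axin2 difference from CTRL, but its size depended on single libraries. With 1 library left out it ran from -0.58 to -0.24 in T1 and from -0.48 to -0.14 in T3. CTRL replicate 3, at 10.9 CPM, was the highest of the 17 libraries and is part of the CTRL mean.

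Nkd1 (ENSMUSG00000031661, chr8:88521354-88594884, plus strand), an inhibitor that binds Dishevelled and is induced by the pathway, had the widest spread of the 8 members detected in every library. Its CPM was 7.23, 2.34, 2.06, 5.54 and 9.53 in CTRL, 2.76, 3.50, 5.38 and 21.7 in T1, 3.47, 3.14, 3.79 and 13.1 in T3, and 9.70, 8.19, 22.4 and 3.55 in T5. A single library held the high value in T1 (replicate 4), T3 (replicate 4) and T5 (replicate 3), and the highest library was 10.9 times the lowest. The log2 fold changes against CTRL were 0.64 ± 0.70, 0.15 ± 0.70 and 1.04 ± 0.69, with adjusted p of 0.601, 0.977 and 0.766 by edgeR. Without T1 replicate 4 the T1 value was -0.46, without T3 replicate 4 the T3 value was -0.63, and without T5 replicate 3 the T5 value was 0.42.

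Apcdd1 (ENSMUSG00000071847, chr18:62922231-62961179, plus strand), a membrane protein that inhibits Wnt signalling and marks brain endothelium among other cells, was absent from the reads of CTRL replicates 2 and 3. A count of 0 there allows up to 0.121 and 0.126 CPM, taking 3 counts as the limit and covering counting error only. The other CTRL libraries had 1.86, 0.504 and 3.98 CPM. T1 gave 1.22, 1.96, 3.04 and 5.28 CPM, T3 gave 1.25, 1.75, 2.37 and 10.4 CPM, and T5 gave 4.26, 9.37, 3.26 and 0.989 CPM. In each DSS group 3 of 4 libraries lay above the CTRL mean of 1.27 ± 1.70 CPM (SD, n = 5), and all groups overlapped. The log2 fold changes were 1.19 ± 1.11, 1.66 ± 1.103 and 1.82 ± 1.11, with adjusted p of 0.538, 0.911 and 0.729 by edgeR. limma-voom gave 3.95 in T1 with an adjusted p of 0.0311, within 0.0311 to 1.0 over the alternatives. It gave 3.54 in T3 and 4.21 in T5, with adjusted p of 0.674 and 0.329, within 0.671 to 0.997 and 0.329 to 0.987 over the alternatives. Without the 4 libraries with high title numbers the T1 value was -0.05. Without T3 replicate 4 the T3 value was 0.51, and without T5 replicate 2 the T5 value was 1.15.

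Znrf3 and Rnf43 code for the paired membrane ubiquitin ligases that remove Frizzled receptors from the cell surface. Znrf3 (ENSMUSG00000041961) lies at chr11:5276324-5444847, minus strand, and Rnf43 (ENSMUSG00000034177) at chr11:87662722-87735539, plus strand. Znrf3 had 5.82, 8.71, 8.03, 3.40 and 4.37 CPM in CTRL, 12.2, 3.83, 12.1 and 5.46 CPM in T1, 3.66, 4.65, 3.97 and 4.41 CPM in T3 and 8.05, 5.75, 3.19 and 5.70 CPM in T5. T1 held the highest libraries, replicates 1 and 3, and T3 the narrowest range. Against CTRL the log2 fold changes of Znrf3 were 0.46 ± 0.36, -0.54 ± 0.36 and -0.10 ± 0.36, with adjusted p of 0.452, 0.911 and 0.974 by edgeR.

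Rnf43 stood at 7.79, 14.7, 17.5, 11.3 and 19.4 CPM in CTRL and at 10.9, 21.3, 21.1 and 18.2 CPM in T1. In T3 it stood at 16.8, 17.2, 22.9 and 18.3 CPM, and in T5 at 12.9, 8.90, 9.29 and 17.04 CPM. The 4 T3 libraries all lay above the CTRL mean, and the 4 T5 libraries all lay below the T3 mean. T5 replicate 4, at 17.04 CPM, kept the ranges of T3 and T5 overlapping. Rnf43 was 12.04 ± 3.796 CPM in T5 and 18.8 ± 2.83 CPM in T3 (SD, n = 4 each), a log2 fold change of -0.64 ± 0.28 with an adjusted p of 0.446 by edgeR. Its values against CTRL were 0.34 ± 0.26 in T1, 0.41 ± 0.26 in T3 and -0.23 ± 0.26 in T5. The sign of the T5 against T3 difference was negative under every alternative run, at -0.85 to -0.53 when single libraries were left out and at -0.30 with both the title number term and the brain marker covariate. This covariate is the mean log2 CPM of the neuronal, astrocyte and oligodendrocyte markers in each library.

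Lgr5 (ENSMUSG00000020140, chr10:115450311-115587780, minus strand), an R-spondin receptor known as a stem cell marker in the intestine, was barely detected. Its counts ran from 0 to 20 per library and came to 101 over all 17, and the count was 0 in CTRL replicates 2 and 5 and in T3 replicates 2 and 3. A count of 0 there allows up to 0.116 to 0.168 CPM. The highest library was T1 replicate 1, at 1.63 CPM. The log2 fold changes of 1.81 ± 1.18, 0.57 ± 1.20 and 1.34 ± 1.18 against CTRL rest on these counts and had adjusted p of 0.377, 0.958 and 0.845 by edgeR. Without T1 replicate 1 the T1 value was 0.83.

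**Figure D2:**
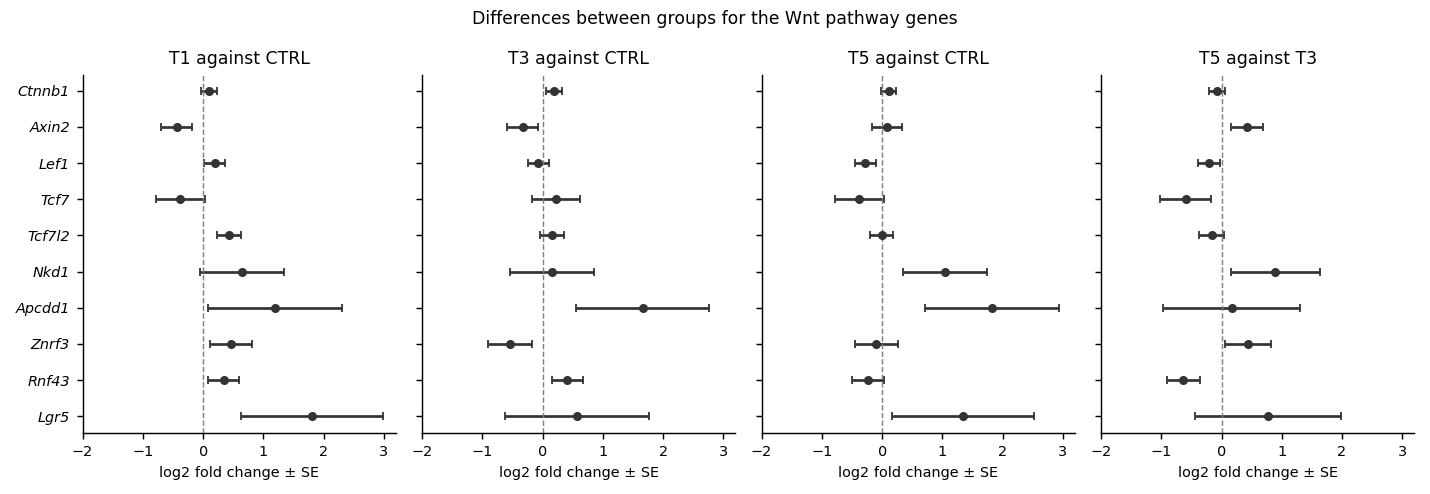
Log2 fold change ± SE of each of the 10 genes in T1, T3 and T5 against CTRL and in T5 against T3, from edgeR's quasi-likelihood fit over all 17 libraries. The dashed line marks 0. No gene passed the adjusted threshold, and the widest bars belong to Apcdd1 and Lgr5.

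Levels of several members followed markers of particular cell types from library to library. Pearson's r of log2 CPM with the mean log2 CPM of each of 12 marker lists was computed over the 17 libraries, 120 relations in all, with permutation tests and Benjamini-Hochberg adjustment over the 120. In 16 of them both r and Spearman's rho had an adjusted p under 0.05, and these belonged to Nkd1 (8 lists), Apcdd1 (5) and Tcf7l2 (3). The libraries share the 4 groups, the choroid plexus source and a common scaling.

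Nkd1 followed glial markers most closely. With the 8 astrocyte markers r was 0.90 and rho 0.87 (permutation p = 1e-05, about the smallest that 100000 permutations can give, and 2e-05; adjusted p = 0.0008 and 0.0024), and r was 0.86 without the 2 libraries farthest from the median. Within the 13 libraries with title numbers below 28, r was 0.89. With oligodendrocyte precursor markers r was 0.86 and rho 0.83, with oligodendrocyte markers 0.82 and 0.77, and with epithelial markers -0.78 and -0.77. Lists of other cells also passed both tests: thalamic neurons (0.72 and 0.69), border macrophages (0.71 and 0.72), neurons (0.70 and 0.68) and fibroblasts (0.65 and 0.66). The 3 libraries that set Nkd1 apart stood high in oligodendrocyte or astrocyte markers within their groups. T5 replicate 3 had 16320 CPM and T1 replicate 4 had 9098 CPM of oligodendrocyte markers, beside 91.0 to 6963 CPM in CTRL. The astrocyte sum has a high floor, since Slc39a12 had 169 to 326 CPM and Aldh1l1 87.4 to 122 CPM over the 17 libraries. Gfap, of the same list, had 3.24 to 432 CPM. T3 replicate 4 had 831 CPM of astrocyte markers, where its T3 companions had 495 to 519.6 CPM and CTRL 448 to 889.8 CPM. The part of these cells in the Nkd1 differences between groups was not tested. A fit with the brain marker covariate gave -0.46 for T1 against CTRL (adjusted p = 0.623 by edgeR) in place of 0.64. It gave 0.20 for T3 in place of 0.15, and 0.20 for T5 in place of 1.04. For T5 against T3 the same fit gave 0.0044 in place of 0.89. The covariate holds markers that Nkd1 follows in these same libraries, so these shifts are not separate from the correlations above.

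Apcdd1 followed neuronal, border macrophage, astrocyte and fibroblast markers. With neurons r was 0.84 and rho 0.77 (permutation p = 2e-05 and 0.00049; adjusted p = 0.0008 and 0.00915), r was 0.73 without the 2 farthest libraries and 0.81 within title numbers below 28. With border macrophages r was 0.84 and rho 0.74, with astrocytes 0.84 and 0.78, and with fibroblasts 0.79 and 0.77. T3 replicate 4 and T5 replicate 2, the libraries with the most Apcdd1, had 458 and 753 CPM of neuronal markers beside 17.7 to 119 CPM in CTRL. With the endothelial list r was 0.40. A fit with the brain marker covariate gave Apcdd1 log2 fold changes of 0.70 in T1, 2.58 in T3 and 1.61 in T5 against CTRL, in place of 1.19, 1.66 and 1.82, with adjusted p of 0.653, 0.671 and 0.576, and -0.97 in place of 0.16 for T5 against T3.

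Tcf7l2 followed endothelial and mural markers. With the 12 endothelial markers r was 0.79 and rho 0.75 (permutation p = 0.00022 and 0.00061; adjusted p = 0.00307 and 0.00915), and r was 0.68 without the 2 farthest libraries. Within title numbers below 28 it was 0.52. With mural cells r was 0.75 and rho 0.68, falling to 0.38 within title numbers below 28, and with thalamic neurons 0.72 and 0.69. The endothelial sum spanned 136 to 286 CPM among CTRL libraries and 243 to 582 CPM with 1 day of DSS, with T3 at 169 to 302 and T5 at 193 to 274. All 12 endothelial markers had positive T1 values against CTRL, 9 of them with an unadjusted p under 0.05 where 9.43% of all genes were higher at that level. Since T1 replicates 2, 3 and 4, with 396, 582 and 484 CPM of these markers, are also the libraries with high title numbers, their parts cannot be told apart. Lef1 had r = 0.51 with the endothelial list (adjusted p = 0.179, permutation test), which was 0.26 without the 2 farthest libraries and -0.076 within title numbers below 28. Rnf43 had r = -0.0042 over all libraries and -0.82 within title numbers below 28. Axin2 followed none of the lists, with r from -0.33 to 0.24.

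**Figure D3:**
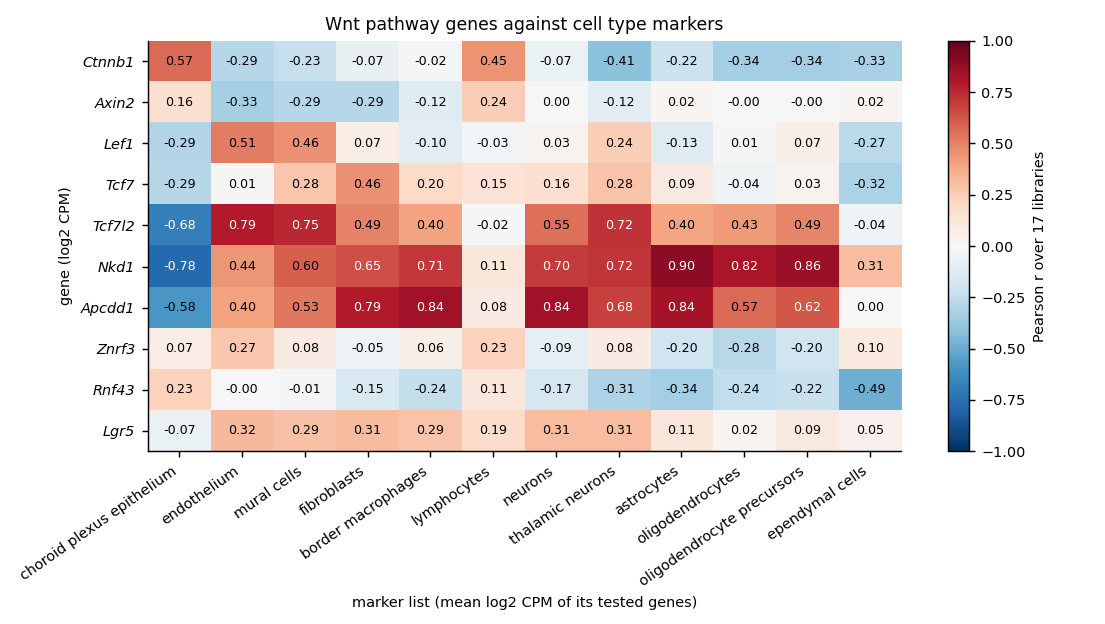
Pearson's r over the 17 libraries between the log2 CPM of each Wnt pathway gene (rows) and the mean log2 CPM of each marker list (columns). Red is positive and blue negative. Nkd1 and Apcdd1 carry high values across the brain cell lists, Tcf7l2 is highest with endothelium at 0.79, and Axin2 stays between -0.33 and 0.24.

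**Figure D4:**
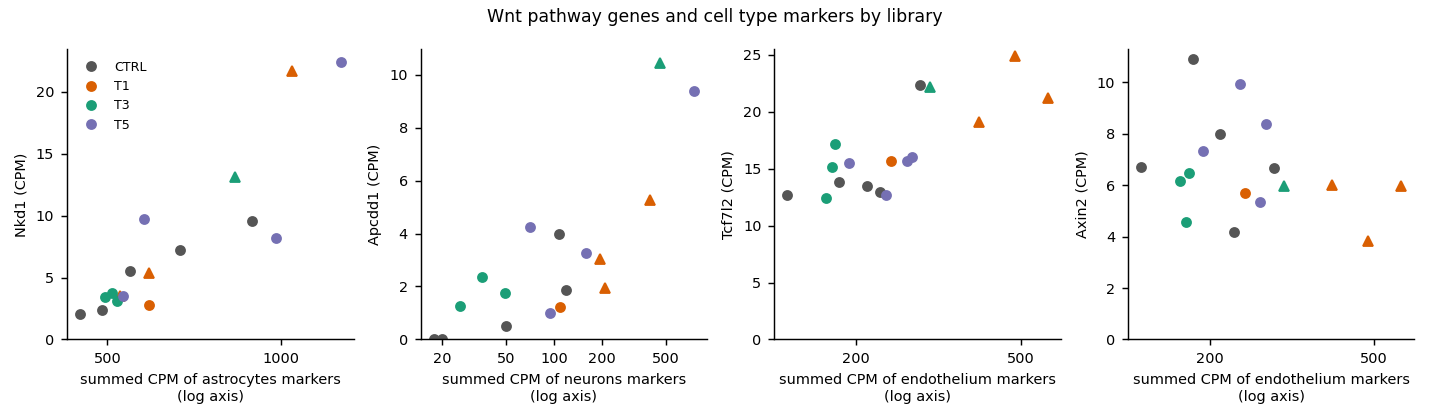
CPM of Nkd1, Apcdd1, Tcf7l2 and Axin2 against the summed CPM of a marker list, on a log axis, in each library. Colours give the group and triangles mark title numbers of 28 or above. The 3 libraries with over 300 CPM of endothelial markers and T1 labels have 19.1 to 24.9 CPM of Tcf7l2, while Axin2 does not follow the same axis.

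The genes whose log2 CPM was most like each member were listed by r over the 17 libraries, as a description. Nkd1 was most like Ndrg1 (0.96), Lpar1 (0.95) and Arl4d (0.94), and Apcdd1 most like Bcl6 (0.92), Fgf12 (0.91) and Cacnb3 (0.91). Ctnnb1 was most like Canx (0.90), Acsl4 (0.90) and Nrd1 (0.89), and Rnf43 most like Rnf123 (0.94), Mroh1 (0.92) and Abcc4 (0.90). Lef1 was closest to Pdzd2 (0.89), Rai1 (0.89) and Dot1l (0.88), Tcf7l2 to Adamts10 (0.89), Tnrc6b (0.86) and Zfhx3 (0.86), and Znrf3 to Osbp (0.87), Mark1 (0.87) and Pmepa1 (0.86). The likeness was lower for Axin2, at 0.79 with Lrch2, 0.73 with Rrp8 and 0.72 with Snn. It was also lower for Tcf7, at 0.77 with Foxp2, 0.77 with Osbpl10 and 0.76 with Tubg2, and for Lgr5, at 0.76 with Spink10, 0.72 with Taf1d and 0.70 with Lypd2. Among the members themselves, r was highest for Nkd1 with Apcdd1 (0.72), Lef1 with Tcf7l2 (0.66) and Lef1 with Rnf43 (0.53).

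The wider pathway was read from lists of its parts, and edgeR called 0 genes in every list and comparison. The rule named 55 genes from these lists, in part for the smallest p in T1 against CTRL in the same libraries. Calls of these genes, here and below, are therefore not independent of their naming. DESeq2 called 7 of them in T1 against CTRL (Ctnnbip1, Cby1, Msx1, Id2, Plvap, Csnk1d and Aes), where it called 701 of all 16851 genes. limma-voom called the same 7 with Frzb, Abcb1a, Cdh5, Kremen1, Ppp2ca and Gsk3b, where it called 4140 of all genes. With edgeR, 8 were called without T1 replicate 1 and 3 without T3 replicate 4, beside 2203 and 717 of all genes. The tissue carried much more RNA of Wnt antagonists and receptors than of ligands. Of 20 ligands 13 passed the filter, and Wnt1, Wnt3a, Wnt8a, Wnt9b, Wnt10a, Wnt10b and Wnt16 did not. Wnt9a had the highest median per length (2.35 CPM per kb), followed by Wnt5b (2.09), Wnt4 (1.59) and Wnt5a (1.34). Wls, which carries Wnt proteins to the cell surface, had 32.6 CPM per kb. Among receptors, Fzd4 and Fzd7 had 19.9 CPM per kb each and Lrp6 7.80, against 0.629 for Lrp5. Among antagonists, Sostdc1, a secreted inhibitor of Wnt and BMP signalling, had 650.3 CPM per kb, followed by Sfrp1 with 37.8, Sfrp5 with 31.6 and Dkk3 with 12.5, while Dkk1, Dkk4, Wif1, Sost and Kremen2 did not pass the filter.

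**Figure D5:**
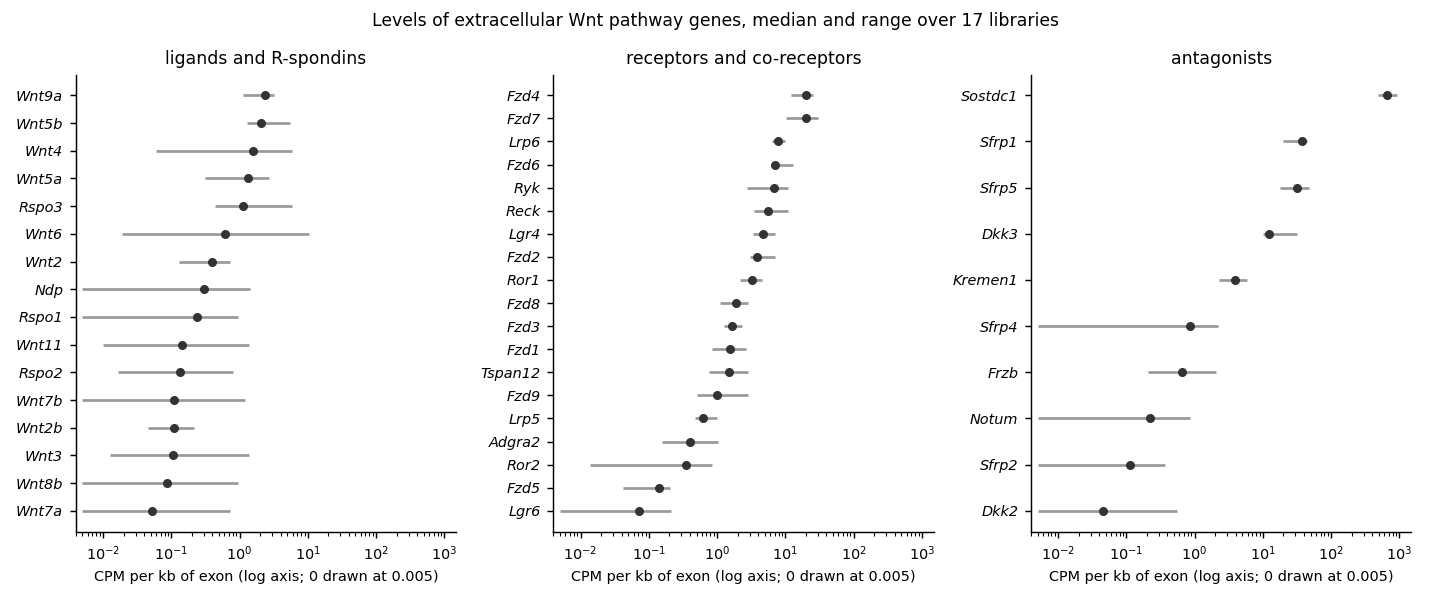
Median (point) and range (line) over the 17 libraries of the tested ligands and R-spondins, receptors and co-receptors, and antagonists, in CPM per kb of exon on a log axis. Libraries at 0 are drawn at 0.005. Sostdc1 stands above all other genes shown, and no ligand median exceeds 2.35.

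Among ligands, 12 of 13 had positive values in T1 against CTRL, 9 in T3 and 11 in T5, with medians of 0.66, 0.46 and 0.77. Wnt6, a ligand of epithelial and mesenchymal cells, had 0.0420 to 1.81 CPM in CTRL, 22.95 CPM in T3 replicate 4 and 18.4 CPM in T5 replicate 1, which lay above every other library (at most 6.28 CPM). Its log2 fold changes in T3 and T5 were 2.92 ± 1.26 and 2.69 ± 1.26, with adjusted p of 0.911 and 0.638 by edgeR. The Wnt6 value was 0.68 in T3 without T3 replicate 4 and 0.86 in T5 without T5 replicate 1. Of the R-spondins, which protect Frizzled by engaging Rnf43 and Znrf3, 3 of 4 were tested and Rspo3 was highest, with a median of 1.14 CPM per kb. For Rspo3 the log2 fold changes were 0.29 ± 0.67, 0.96 ± 0.66 and 0.64 ± 0.66, and their signs turned in 5, 3 and 1 of 26 alternatives, with lowest values of -0.42, -0.28 and -0.02. The lowest T3 value came without T3 replicate 4, which had 17.9 CPM where T3 replicates 1 to 3 had 2.12 to 3.52 CPM, and the lowest T5 value without T5 replicate 1.

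Of the receptors, 17 of 19 had positive values in T1, 15 in T3 and 13 in T5, and 13 of 19 had negative values in T5 against T3, where 8280 of all 16851 genes did. Lrp6 was 116 ± 19.5 CPM in T1, 118 ± 12.7 in T3 (SD, n = 4 each) and 96.3 ± 8.997 in CTRL (SD, n = 5), log2 fold changes of 0.27 ± 0.12 and 0.29 ± 0.12 with adjusted p of 0.2 and 0.911. Fzd4, a receptor for Norrin, was 148 to 151 CPM in the 4 T3 libraries and 81.7 to 136 CPM in CTRL. These did not overlap, and the log2 fold change was 0.30 ± 0.13 (adjusted p = 0.911). The Fzd4 median over the 17 libraries was 134 CPM, beside 19.7 CPM for the endothelial marker Pecam1. Which cells held the Fzd4 RNA was not tested. Ryk, a Wnt co-receptor, had 20.2, 19.3, 16.1 and 13.9 CPM in T3, below its lowest CTRL library of 23.6 CPM. The log2 fold change of Ryk in T3 was -0.89 ± 0.30 (adjusted p = 0.911). Its T1 libraries were spread widely, at 49.3, 12.6, 42.1 and 21.4 CPM, and held both the highest and the lowest value of the 17 libraries. Lgr4, the R-spondin receptor related to Lgr5, was 33.5 ± 5.88 CPM in T3 and 25.3 ± 4.81 in CTRL, a log2 fold change of 0.41 ± 0.14 (adjusted p = 0.911).

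Antagonists had positive values for 8 of 10 tested genes in T1, 8 in T3 and 7 in T5. Sostdc1 ranged from 933 to 1473 CPM in CTRL and from 872 to 1657 CPM in the DSS groups, with log2 fold changes of -0.04 ± 0.20, 0.02 ± 0.20 and -0.14 ± 0.20, each of which turned its sign in some alternatives (7, 4 and 2 of 26). Frzb, a secreted decoy for Wnt, had 2.96, 4.36, 6.61 and 5.10 CPM in T1, while CTRL ran from 0.673 to 4.24 CPM, and the log2 fold change was 1.36 ± 0.55 (adjusted p = 0.185). The Frzb value was 0.66 without the 4 libraries with high title numbers and 0.27 with a term for them, and limma-voom gave an adjusted p of 0.0055, within 0.0055 to 0.999 over the alternatives. Dkk3 stood at 108.0 CPM in T3 replicate 4 and at 39.1 to 43.1 CPM in the other T3 libraries.

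In the destruction complex and Dishevelled list, 15 of 21 genes had positive values in T1, 12 in T3 and 14 in T5, with medians of 0.12, 0.05 and 0.03. Csnk1d, a casein kinase of the pathway, was 117 ± 5.97 CPM in T1 and 96.9 ± 7.48 in CTRL without overlap, a log2 fold change of 0.27 ± 0.08 (adjusted p = 0.138 by edgeR). DESeq2 called Csnk1d at an adjusted p of 0.0227, limma-voom at 0.0222 and edgeR without T1 replicate 1 at 0.0387, within 0.0222 to 0.999 over the alternatives, and the value was 0.14 without the 4 libraries with high title numbers. Axin1 stood at 48.5 ± 2.63 CPM in T3 and 59.4 ± 7.92 in CTRL (-0.29 ± 0.10, adjusted p = 0.911), and Amer1 at 15.4 ± 5.07 CPM in T5 and 23.01 ± 5.61 in CTRL (-0.57 ± 0.20, adjusted p = 0.598).

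Nuclear partners of beta-catenin held the lowest p of the pathway in T1. Of 16 genes, 9 had positive and 7 negative values, and 5 were lower at an unadjusted p under 0.05, as were 11.7% of all genes. Cby1, which binds beta-catenin and keeps it from TCF/LEF factors, had 67.2, 65.3, 65.1, 67.4 and 60.3 CPM in CTRL and 57.6, 43.4, 34.97 and 35.3 CPM in T1. The groups did not overlap, and the 3 lowest T1 libraries were those with high title numbers. The log2 fold change was -0.61 ± 0.15 (adjusted p = 0.13 by edgeR), and it was -0.20 without the 4 libraries with high title numbers. Ctnnbip1, which blocks the binding of beta-catenin to TCF factors, had 34.4, 34.5, 39.6, 34.4 and 40.0 CPM in CTRL and 27.1, 30.9, 21.4 and 27.9 CPM in T1, also without overlap. Its log2 fold change was -0.45 ± 0.12 (adjusted p = 0.131) and remained -0.45 without the 4 libraries, where T1 replicate 1 stood alone. DESeq2 called both, with adjusted p of 0.0152 for Cby1 and 0.0219 for Ctnnbip1, and so did limma-voom (0.0047 and 0.0066). Both genes were named for the smallest p of their list in T1 against CTRL, so calls on the same libraries are not separate support. With a term for the title numbers the adjusted p was 0.999 for each, the highest over the alternatives. In T5 the values were -0.02 ± 0.15 for Cby1 and -0.01 ± 0.11 for Ctnnbip1.

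Other reported targets had positive values for 16 of 22 tested genes in T1, 14 in T3 and 15 in T5. The abundant homeobox gene Msx1, a target shared with BMP signalling, was 585 ± 43.7 CPM in T1 and 813 ± 79.5 in CTRL without overlap (-0.47 ± 0.15, adjusted p = 0.139 by edgeR). Id2, likewise shared with BMP signalling, was 163 ± 23.7 CPM in T1 and 219.5 ± 25.6 in CTRL (-0.43 ± 0.14, adjusted p = 0.14). DESeq2 called both, at adjusted p of 0.0345 for Msx1 and 0.0498 for Id2, as did limma-voom at 0.011 and 0.0112, and the highest over the alternatives was 0.999 for each. Without the 4 libraries with high title numbers Msx1 was at -0.48 and Id2 at -0.29. Ccnd1, a cell cycle target, was 5.53 ± 3.46 CPM in T1 and 3.58 ± 1.82 in CTRL (0.63 ± 0.41, adjusted p = 0.377). The sign of Ccnd1 turned in 3 of 26 alternatives, and the value was -0.97 without the 4 libraries with high title numbers.

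Vascular barrier genes that respond to Wnt in brain endothelium were read last. Of 13 genes, 11 had positive values in T1, 9 in T3 and 10 in T5. The list includes Plvap, which goes down with Wnt signalling in brain vessels, so this count has no single direction. Slco1c1, Slc2a1 and Itm2a had medians of 1255, 181 and 153 CPM, beside 19.7 CPM for the endothelial marker Pecam1. Which cells held their RNA was not tested. Plvap, which codes for the diaphragm protein of fenestrated capillaries and is lowered by Wnt signalling in brain vessels, had 45.6, 43.0, 34.9, 34.4 and 17.1 CPM in CTRL and 33.0, 65.4, 123 and 84.8 CPM in T1. T1 replicate 1 lay within the CTRL range and the other 3 above it. The log2 fold change was 1.13 ± 0.34 (adjusted p = 0.138 by edgeR), and it was -0.11 without the libraries with high title numbers. DESeq2 called Plvap at an adjusted p of 0.0266 and limma-voom at 0.0055, within a range up to 0.999. In T3 Plvap had 22.2, 25.1, 27.03 and 17.02 CPM, a log2 fold change of -0.61 ± 0.35 (adjusted p = 0.911). Foxq1, a Wnt-responsive factor of brain endothelium, had 0.168 to 0.567 CPM in CTRL and 0.611 to 1.88 CPM in T1 (1.51 ± 0.63, adjusted p = 0.191). The values of T1 and CTRL did not overlap, and the Foxq1 value was 0.69 without the 4 libraries with high title numbers. T3 also lay above CTRL, at 0.620 to 2.14 CPM, while T5 overlapped it at 0.349 to 2.40 CPM. The log2 fold changes against CTRL were 1.58 in T3 and 1.54 in T5. Foxq1 had only 266 counts over the 17 libraries, so all these values lie near the floor. Plvap is also 1 of the 12 endothelial markers, all of which had positive T1 values.

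Cadherins and catenins, which share beta-catenin with the pathway, had positive values for 6 of 7 genes in T1 and 4 of 7 in T3 and T5. Cdh2 was 16.8 ± 2.99 CPM in T1 and 11.8 ± 2.05 in CTRL without overlap (0.50 ± 0.19, adjusted p = 0.16 by edgeR), and the value was 0.36 without the 4 libraries with high title numbers and 0.20 with a term for them. Cdh1 reached 66.6 CPM in T3 replicate 4 beside 5.202 to 6.804 CPM in the other T3 libraries. Ctnna1, the most abundant of the list, differed from CTRL by -0.06 ± 0.10 in T1, 0.07 ± 0.10 in T3 and -0.22 ± 0.10 in T5 (adjusted p = 0.631).

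The edgeR calls over all genes in T1 hung on single libraries. Without T1 replicate 1, edgeR called 2203 genes in T1 against CTRL, and without T3 replicate 4 it called 717, beside 0 with all libraries. In the test of any difference the same omissions gave 1222 and 454 called genes. None of the 10 members was called in any of these fits. Without T1 replicate 1, every T1 library had a title number of 28 or above, so DSS and that number series were not separable.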

How the data were processed

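Whole choroid plexus RNA of 17 libraries was compared between control mice and 3 stages of DSS treatment. The authors deposited 1 table of raw counts, with a row for every Ensembl identifier. GRCm38 is the build in the submitters' processing notes, which also list featureCounts 1.6.4, Trimmomatic 0.39 and STAR 2.6.1b. The annotation release is not given, and neither is the strand setting, in the sources used here. Symbols and coordinates came from GENCODE M21 (GRCm38), in which 55394 of 55487 identifiers were found. The test was edgeR's quasi-likelihood test (version 4.0.16, R 4.3.3), robust, with TMM factors, filterByExpr by group and a design with 1 mean for each group, fitted to the 17 libraries. Benjamini-Hochberg adjustment covered 16851 genes, with a threshold of 0.05. The SE was derived from the F statistic and is approximate. DESeq2 1.42.0 and limma 3.58.1 (voom) were alternatives. Scripts were tested on simulated data. Other pathway genes were named by rule: from each list every called gene, the 2 with the highest CPM and the 2 with the smallest p in each comparison with CTRL, and for each member the 3 genes with the highest r. Genes given beyond that rule were chosen after their values were seen. The members and lists were chosen with earlier results of these data known. The labels do not say that libraries came from separate animals, so p-values measure the spread between these samples, which may be technical. Correlations used a prior count of 2 for log2 CPM.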

Additional observations from a re-analysis of the deposited data

Results flagged for a closer look

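In each group of 4 or 5 libraries, a library was set apart where its gap to the nearest of the others, divided by the group's range, passed the 95% critical value of Dixon's test (0.829 for 4 libraries, 0.71 for 5). This happened in 6 of 40 groups, and chance alone sets apart about 1 in 20. Tcf7l2 was 22.4 CPM in CTRL replicate 1, beside 12.7 to 13.8 CPM in the other CTRL libraries, and 12.7 CPM in T5 replicate 2, beside 15.5 to 16.03 CPM. Axin2 was 3.82 CPM in T1 replicate 4, beside 5.72 to 6.03 CPM. Nkd1 was 21.7 CPM in the same library, beside 2.76 to 5.38 CPM, and 13.1 CPM in T3 replicate 4, beside 3.14 to 3.79 CPM. Apcdd1 was 10.4 CPM in T3 replicate 4, beside 1.25 to 2.37 CPM. Of these 6 values, 2 came from T1 replicate 4 and 2 from T3 replicate 4.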

How the results depend on the processing

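Of 1020 values of the 10 members under the alternatives, 970 kept direction and call, 48 had the opposite sign and 2 were newly called; 26 of 40 member differences showed no sign change. The cause was not tested. Counts of 0 to 20 for Lgr5 and 0 to 253 for Apcdd1 limit the precision of both. No paired analysis was possible because replicate numbers were given in accession order and pair nothing.

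Genes called in T1 against CTRL numbered 701 with DESeq2, 4140 with limma-voom (2 members) and 0 to 2203 with 1 library left out (2203 without T1 replicate 1, 717 without T3 replicate 4). DESeq2 called 2 genes in T3 and 12 in T5 against CTRL, and 80 in T5 against T3, where leaving out 1 library gave 0 to 1 (1 without T5 replicate 4). For any difference, DESeq2 called 970, limma-voom 3907 (1 member), no filter 10, and 1 library left out 0 to 1222.

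Signs turned in T1 with the title number term for Lef1 (-0.17), Nkd1 (-0.97) and Apcdd1 (-0.48); without the 4 libraries for Lef1 (-0.34), Nkd1 (-0.96), Apcdd1 (-0.051) and Rnf43 (-0.40); with the brain covariate for Nkd1 (-0.46); and with both terms for Lef1 (-0.18), Nkd1 (-0.72) and Rnf43 (-0.0064). In T3 they turned with limma-voom for Tcf7 (-0.16), Nkd1 (-0.0795) and Lgr5 (-0.73), with the term for Tcf7 (-0.072) and Nkd1 (-0.61), without the 4 libraries for Tcf7 (-0.31), Tcf7l2 (-0.0058), Nkd1 (-0.61) and Lgr5 (-1.86), and with both terms for Tcf7 (-0.019). In T5, Tcf7l2 was 0.0030 with DESeq2, 0.0019 with its size factors in edgeR and 0.10 with limma-voom, and Znrf3 was 0.20 with the covariate and 0.21 with both terms. In T5 against T3, Lef1 was 0.041 with both terms and Apcdd1 -0.97 with the covariate and -1.18 with both terms.

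With 1 library left out, the range was -0.46 to 0.97 for Nkd1 in T1; in T3, -0.15 to 0.034 for Lef1, -0.32 to 0.46 for Tcf7, -0.019 to 0.34 for Tcf7l2 and -0.63 to 0.45 for Nkd1; in T5, -0.071 to 0.27 for Axin2, -0.074 to 0.18 for Tcf7l2 and -0.32 to 0.10 for Znrf3; and -0.47 to 1.31 for Apcdd1 in T5 against T3.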
